A study of Mus musculus with 3 samples.

Results

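CD8 T cells that carried much PD-1 on their surface were compared with CD8 T cells that carried little, within B16-Ova and MC38-Ova tumours of mice. The cells were chosen by their surface tag: 30 or more unique molecular identifiers (UMIs) of the PD1 antibody tag made a cell PD-1-high, and 16 or fewer made it PD-1-low. Of 1792 CD8-gated cells from B16-Ova tumours, 399 were PD-1-high and 653 PD-1-low. Of 2544 from MC38-Ova tumours, 413 were PD-1-high and 955 PD-1-low. The 2420 cells compared were taken from 19912 barcodes in all. The 740 and 1176 CD8-gated cells between these limits (17 to 29 UMIs) stayed out of this comparison and serve only in checks. A cell counted as CD8-gated with at least 2 UMIs of Cd8a and Cd8b1 together and none of Cd4 or Foxp3, so these 4 genes are no finding here.

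Both tumours grew under the skin of C57BL/6 mice and were taken on day 14. The B16-Ova line is a melanoma and the MC38-Ova line a colon carcinoma, and both carry the model antigen ovalbumin. T cells were sorted as TCRβ+ CD3+ CD90.2+ and CD11b-, labelled with a hashtag per tumour and with antibody tags, then mixed and run as 1 droplet capture (10x Genomics, 5′ chemistry). There was 1 pool of cells per tumour, and how many mice stood behind a pool is not given in the sources used here. The p-values below therefore do not measure the spread between mice. They rest on these 2 pools, with most of each gene's variance estimate borrowed from the other genes. In the check with cells paired on RNA UMIs, that estimate is wholly borrowed.

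PD-1, the product of Pdcd1, is an inhibitory receptor that T cells put on their surface after their antigen receptor has been engaged. When bound by its ligands PD-L1 or PD-L2 it recruits phosphatases that dampen signalling from the antigen receptor and from CD28. In tumours, lasting antigen exposure is known to leave CD8 T cells with sustained PD-1, further inhibitory receptors such as Tim-3, Lag-3 and TIGIT, and the transcription factor TOX. Cells with less PD-1 more often keep TCF-1, the product of Tcf7, and homing receptors of naive and memory cells.

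The surface readout rested on short DNA barcodes attached to each reagent, and the selection of cells depended on counts of the PD1 barcode below. The anti-biotin barcode reads L-Pha, a plant lectin that was biotinylated and binds branched N-glycans. The barcodes, 5′ to 3′ and with no letters marked, were as follows.
PD1: gaaagtcaaagcact
Tim3: attggcactcagatg
Biotin: cggtatatcaacaga

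By selection, the median PD1 count was 36 UMIs in the PD-1-high and 12 in the PD-1-low cells of B16-Ova, and 35 and 13 UMIs in those of MC38-Ova. The distribution had no gap at either limit. At the lower limit, 75 B16-Ova cells held exactly 16 PD1 UMIs and 84 held 17, and 146 and 141 MC38-Ova cells did so. At the upper limit, 43 B16-Ova cells held 29 and 40 held 30, and 46 and 39 MC38-Ova cells did so. PD-1-high cells also held more RNA, with medians of 12541 against 6023 RNA UMIs in the B16-Ova pool and 9576 against 6094 in MC38-Ova. All RNA levels below are therefore CPM, the gene's share of the RNA UMIs summed over a group's cells, scaled to a common total. In such sums, fewer cells with a transcript and less of it per cell cannot be told apart. Cells paired on RNA UMIs serve as a check. The pairing kept 214 of 399 PD-1-high cells in B16-Ova and 352 of 413 in MC38-Ova, with as many PD-1-low cells. Median RNA of the kept PD-1-high cells was 8348 UMIs in B16-Ova and 8541.5 in MC38-Ova. Paired values therefore describe only part of the cells, without many of the deepest PD-1-high ones.

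**Figure D1:**
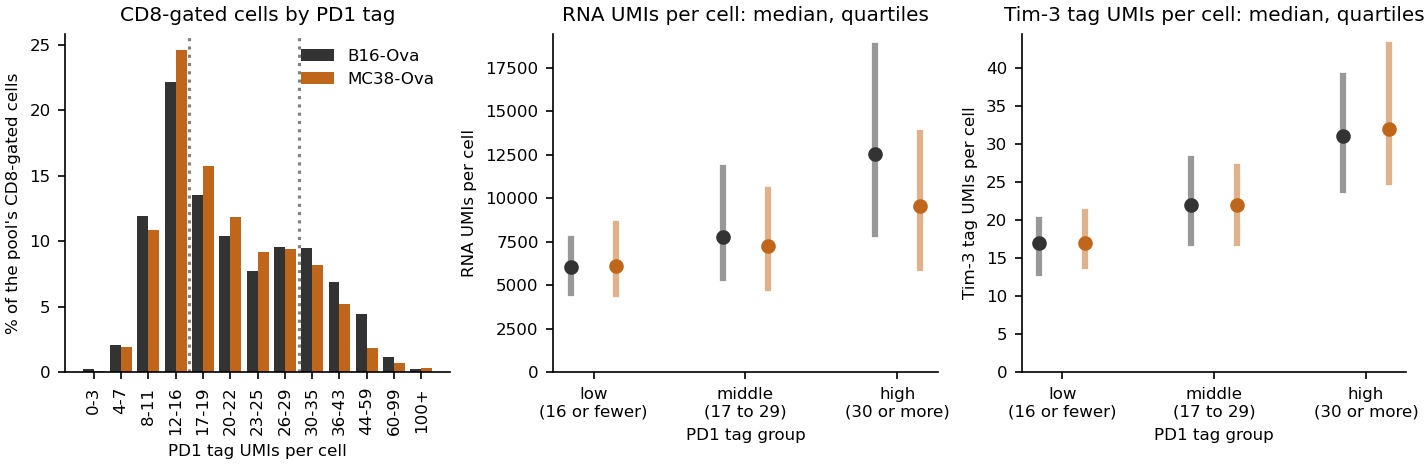
Left, share of each pool's CD8-gated cells (y, %) by PD1 tag UMIs per cell (x, bins of unequal width), with dotted lines at the limits of the PD-1-low and PD-1-high groups. Middle and right, RNA UMIs and Tim-3 tag UMIs per cell (y) by PD1 tag group (x), as medians (points) with quartiles (bars): median RNA was 6023 UMIs in PD-1-low and 12541 in PD-1-high cells of B16-Ova, and 6094 and 9576 in those of MC38-Ova.

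Tim-3 and L-Pha were not used to choose the cells. The median Tim-3 tag count was 31 UMIs in PD-1-high and 17 in PD-1-low cells of B16-Ova, and 32 and 17 in those of MC38-Ova, ratios of 1.82 and 1.88. Between cells paired on RNA UMIs the ratios were 1.82 and 1.72. The L-Pha tag had medians of 959 against 271 UMIs in the B16-Ova pool and 607 against 281 in MC38-Ova. In B16-Ova its ratio was 3.54 over all cells and 2.02 between cells paired on RNA, and in MC38-Ova 2.16 and 1.75. The hashtag of the other tumour, which these cells were not stained with, also had higher medians in PD-1-high cells, 55 against 44 UMIs for B16-Ova cells and 75 against 53 for MC38-Ova cells. A pairing on RNA and on the other tumour's hashtag was chosen after seeing the data. There the Tim-3 ratios were 1.76 and 1.72, the L-Pha ratios 2.20 and 1.64, and the own-hashtag ratios 1.22 and 1.33. With 1 pool per tumour these medians are descriptions.

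The 6 T cell genes checked that the gate did not use, Cd3d, Cd3e, Cd3g, Trac, Trbc2 and Cd2, had UMIs in each of the 4 sums, with a summed level of 4067 to 5440 CPM. The transcript also followed the tag cell by cell. The median PD1 count was 15 UMIs in B16-Ova cells with no Pdcd1 UMI and 28 in those with 3 or more. In MC38-Ova cells it was 16 and 25 UMIs. These classes also differed in RNA depth, with medians of 5907 and 12122 RNA UMIs in B16-Ova. In MC38-Ova the medians were 5742.5 and 9555. The classes were not matched on depth. Markers of macrophages and dendritic cells together were higher in PD-1-high cells, at 259.9 against 91.5 CPM in the B16-Ova pool and 728 against 91.6 CPM in MC38-Ova. Cells with 3 or more UMIs of these markers made up 16.8% of PD-1-high and 4.44% of PD-1-low cells in B16-Ova, and 14.5% and 3.98% in MC38-Ova. Melanoma genes stood at 302 and 251 CPM in the PD-1-high and PD-1-low sums of B16-Ova, and at 21.7 and 28.2 CPM in those of MC38-Ova. In B16-Ova the richest 20 PD-1-high cells held 98.9% of the UMIs of Pmel, a pigment cell gene. The part of melanoma transcripts in the results was not tested. Erythroid genes reached 405.5 CPM in the PD-1-low B16-Ova sum and at most 2.25 CPM in the other 3. Neutrophil markers were at or near 0, at no more than 0.657 CPM in any sum. RNA totals of the 4 sums lay between 4458394 and 6670011 UMIs.

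Across 10324 genes tested with edgeR's quasi-likelihood test with tumour pool as a block, 256 rose in PD-1-high cells (2.48% of those tested) and 193 fell (1.87%) at a Benjamini-Hochberg adjusted p under 0.05. At an unadjusted p under 0.05 there were 1881. All 256 risen genes and 192 of the 193 fallen ones had the same sign in both pools, as 65.1% of all genes did, but the calls were made over these same pools, so this is no separate support. The risen genes had a median log2 fold change of 1.40 in B16-Ova cells and 1.11 in MC38-Ova cells, and the fallen ones -1.57 and -0.73. Whether the pools differ was not tested. The median over all genes tested was -0.01. Between cells paired on RNA UMIs, 4.33% of 9275 tested genes rose and 3.39% fell. The fallen ones included all 4 melanoma genes tested there (median log2 change -1.55), while none of 5 was called over all cells. The risen ones included 4 of 5 macrophage and 3 of 4 dendritic markers, as over all cells. The paired groups thus still differed in transcripts of other cell types. Between the top and bottom PD-1 quartiles taken within RNA deciles, 3.97% of tested genes rose and 2.75% fell. Without cells over 30000 RNA UMIs the shares were 1.91% and 0.942%. Without cells that held 5 or more UMIs of a proliferation list, which left 105 and 165 PD-1-high cells, they were 0.809% and 0.574%. The 10 largest rises among genes with a mean of at least 20 CPM were Gzme, H2-Eb1, Gzmd, H2-Ab1, Serpinb9b, H2-Aa, Ccl1, Serpine2, Gzmc and Nrgn. Among the 10 largest falls were Fam241a, Nsg2, Rflnb, Klra6, Atp1b1, Cmah, Samd3, Gpr18 and Klf3.

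Inhibitory receptors were higher together. Of 15 list members tested, 9 rose and none fell, with a list median of 0.98 on the log2 scale. The 9 include Pdcd1, which encodes the protein whose tag chose the cells, so its rise is no separate support. Pdcd1 itself (ENSMUSG00000026285, chr1:94038305-94052553, minus strand, GRCm38) stood at 536 CPM in PD-1-high and 134 CPM in PD-1-low cells of B16-Ova. In MC38-Ova it stood at 517 and 160 CPM. Both pools were therefore far apart by group, with the tag and the transcript moving the same way. The log2 fold change was 1.84 ± 0.16 (SE, 2 pools; adjusted p = 5.63e-05), and 1.85 between depth-paired cells.

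Lag3, an inhibitory receptor that binds MHC class II, stood at 489 against 139 CPM in the B16-Ova pool and 760 against 214 CPM in MC38-Ova, a log2 change of 1.82 ± 0.15 (SE; adjusted p = 4.14e-05). Havcr2, which encodes Tim-3, stood at 154 against 44.7 CPM in the B16-Ova pool and 188 against 65.5 CPM in MC38-Ova, a log2 change of 1.65 ± 0.16 (SE; adjusted p = 1.90e-04). The Tim-3 tag given above was higher in the same cells. Tigit, Entpd1 (the ectoenzyme CD39), Ctla4, Cd38, Cd200 and Cd200r1 also rose, by 0.88 to 1.58 on the log2 scale. Each of these 9 genes was higher in the PD-1-high sum of both pools. The members without a call included Cd160 (0.11), Cd101 (0.03), Vsir (0.05), Btla (-0.67) and Nt5e (-0.89), so the rise did not extend to every receptor of the list. Between depth-paired cells 10 of the 15 rose, and 5 did without proliferation-rich cells. Cd200r1, which was just past the threshold (adjusted p = 0.0375; edgeR), lost its call with DESeq2 and without the cells of highest Scrublet score, among others.

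**Figure D2:**
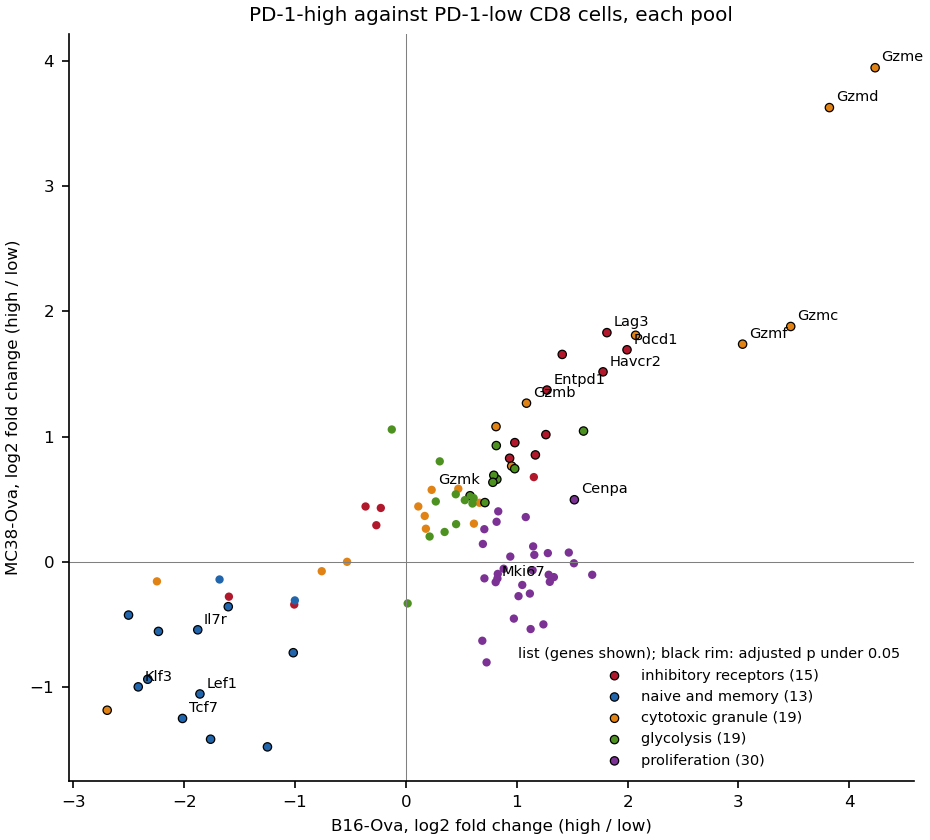
Log2 fold change (PD-1-high over PD-1-low) in B16-Ova (x) against MC38-Ova (y), 1 point per gene shown of 5 lists, with a black rim where the fit over both pools passed an adjusted p of 0.05. Inhibitory receptors with a rim lie at the upper right, naive and memory genes at the lower left, and proliferation genes to the right of 0 in B16-Ova but on both sides of 0 in MC38-Ova.

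Regulators tied to exhaustion rose in part. Of 17 tested, 6 rose and none fell, with a median of 0.47. The count depended on the setting: 10 rose and 1 fell between depth-paired cells, 11 rose within RNA deciles, and 1 rose without proliferation-rich cells. They were Rgs16, a brake on chemokine receptor signalling (1.55), Zbtb32 (1.43), Rbpj, the DNA-binding partner of Notch (1.15), Tox (1.09), Bhlhe40 (1.07) and Prdm1, which encodes Blimp-1 (0.95). Tox stood at 177 against 56.4 CPM in the B16-Ova pool and at 53.8 against 38.2 CPM in MC38-Ova. Its groups were thus well apart in the B16-Ova pool and close in MC38-Ova, with log2 changes of 1.64 and 0.49, and whether the pools differ was not tested. Its call ended without cells holding a UMI of 8 defining myeloid genes, at 1.06 (adjusted p = 0.0548; edgeR), and also without cells over 30000 RNA UMIs. Receptor-induced Nr4a1 (-0.05), Eomes (0.04), Batf (0.28) and Irf4 (-0.22) had no call.

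Genes of naive and memory cells were lower in PD-1-high cells. Of 14 tested, 12 fell and none rose, with medians of -1.87 in the B16-Ova pool and -0.83 in MC38-Ova. Tcf7 stood at 43.5 against 177 CPM in the B16-Ova pool and 71.5 against 171 CPM in MC38-Ova, a log2 change of -1.63 ± 0.19 (SE; adjusted p = 5.96e-04). The PD-1-low sums of the pools were thus nearly level for Tcf7, and the PD-1-high sums were lower in both. Klf3 (-1.70), Id3 (-1.62), S1pr1, the receptor for leaving tissue (-1.61), Lef1, the partner factor of TCF-1 (-1.46), Satb1 (-1.44), Klf2 (-1.40), Dapl1 (-1.36), the interleukin-7 receptor Il7r (-1.20), Foxp1 (-0.97) and Ccr7 (-0.87) fell too. Slamf6 (-0.64) and Bach2 (-0.85) had no call. Between depth-paired cells 12 fell and the list median moved from -1.42 to -0.97, while 4 fell without proliferation-rich cells. Il7r moved from -1.20 to -0.45 there, still past the threshold.

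The levels also moved across cells that the contrast left out. In B16-Ova, Pdcd1 stood at 344 CPM in cells with 17 to 22 PD1 UMIs and at 491 CPM in those with 23 to 29. In MC38-Ova these values were 313 and 417 CPM. Tcf7 stood at 108 and 69.5 CPM in these bands of B16-Ova and at 109.7 and 101.5 CPM in those of MC38-Ova, so its step was small in MC38-Ova. Of the 243 risen genes that could be compared between these bands, 226 had the same sign in B16-Ova (93.0%) and 189 in MC38-Ova (77.8%). Of 188 fallen genes, 180 (95.7%) and 147 (78.2%) did. Over all genes compared the shares were 66.6% and 55.5%. These are signs only. In the test of 23 to 29 against 17 to 22 PD1 UMIs, chosen after seeing the data, 13 of 9842 genes rose (0.132%) and 19 fell (0.193%). Of the 449 genes of the main comparison 13 were called there with the same sign and 1 with the opposite sign, and none of the 14 naive and memory genes was called. At 60 or more PD1 UMIs only 25 cells remained in each pool, and some MC38-Ova levels turned back there: Pdcd1 was at 384 CPM and Tcf7 at 116 CPM.

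**Figure D3:**
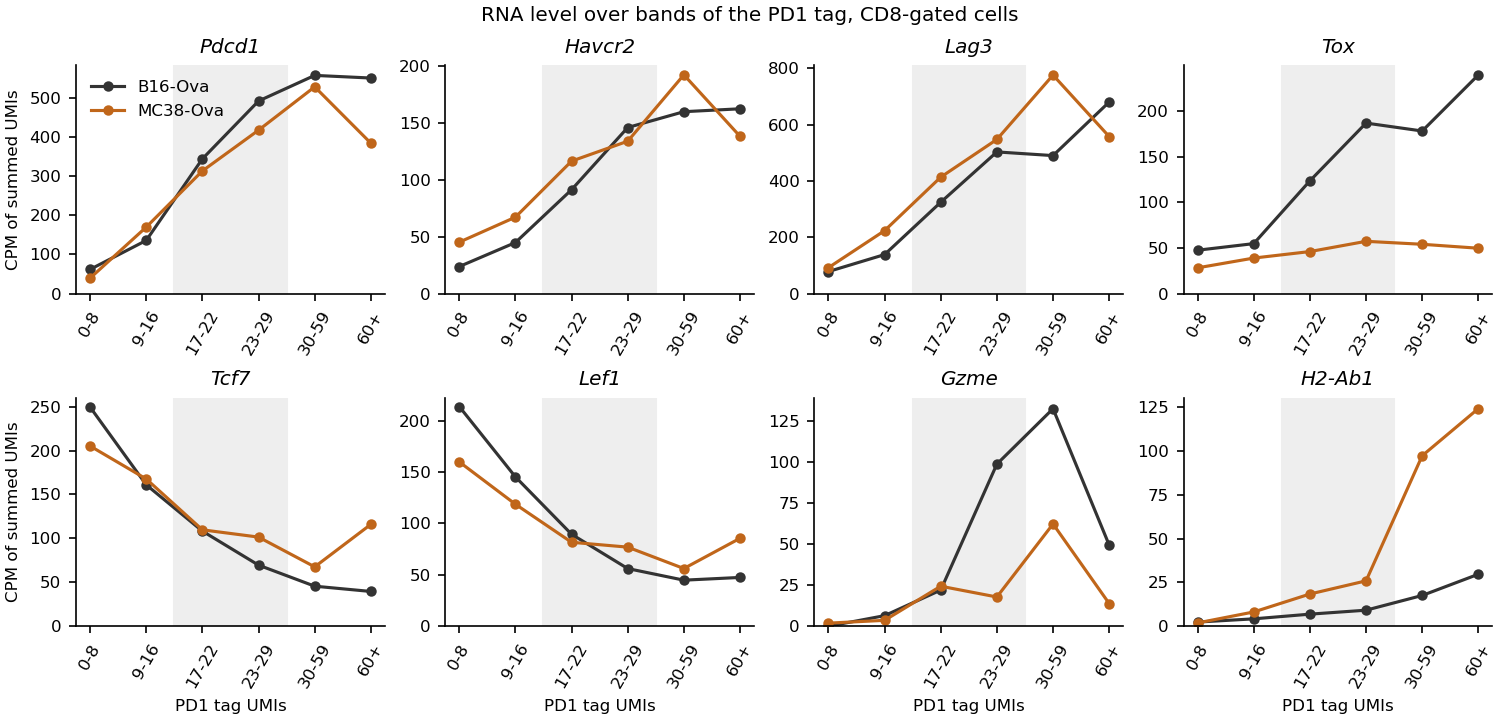
CPM of summed UMIs (y) over bands of PD1 tag UMIs (x) for 8 genes, 1 line per pool, with the bands that the contrast leaves out shaded. Pdcd1 in B16-Ova climbed from 61.8 CPM at 0 to 8 UMIs to 557 CPM at 30 to 59, while Tcf7 went from 249.5 to 45.6 CPM over the same bands. The last band holds 25 cells per pool.

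Cytotoxic granule genes were higher. Of 19 tested, 8 rose and 1 fell, with a median of 0.53. Between depth-paired cells 13 rose and 2 fell, and without proliferation-rich cells 5 rose and none fell. Prf1, the pore-forming protein perforin, stood at 649 against 154 CPM in the B16-Ova pool and 366 against 104 CPM in MC38-Ova, a log2 change of 1.94 ± 0.16 (SE; adjusted p = 4.14e-05). Gzmb, the main granule protease, stood at 1739 against 818 CPM in the B16-Ova pool and 3544 against 1473 CPM in MC38-Ova. Its log2 change of 1.18 became 0.69 between depth-paired cells, where it was still called. The granzyme inhibitors Serpinb9 (0.86) and Serpinb6b (0.95) rose, and Serpinb9b, a relative outside the list, rose by 3.08. Gzmm fell by 1.90 on the log2 scale. Gzma (-1.18) and Gzmk (0.40) had no call, although depth-paired cells put Gzmk at 0.75 (adjusted p = 6.83e-07; edgeR).

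The steepest rises were in the granzyme cluster of chromosome 14. Gzme stood at 121 against 6.08 CPM in the B16-Ova pool and 58.6 against 3.46 CPM in MC38-Ova, a log2 change of 4.20 ± 0.21 (SE; adjusted p = 9.75e-07). Gzmd stood at 104 against 7.02 CPM and 35.8 against 2.55 CPM, a change of 3.85. Gzmc stood at 357 against 31.8 CPM in the B16-Ova pool and 223 against 60.2 CPM in MC38-Ova, and Gzmf at 385 against 46.6 CPM and 100.1 against 29.7 CPM, with changes of 2.65 and 2.41. Few cells carried them. The richest 20 of 399 PD-1-high cells in B16-Ova held 97.8% of the Gzme UMIs and 96.8% of the Gzmd UMIs, and the richest 21 of 413 in MC38-Ova held 97.4% and 100%. For Lag3, by comparison, the richest cells of the same number held 21.4% and 23.2%. The changes were smaller between depth-paired cells, at 2.87 for Gzme, 2.68 for Gzmd, 1.43 for Gzmf and 0.89 for Gzmc, each still called. Without cells holding 5 or more UMIs of the proliferation list, which took most PD-1-high cells, Gzme was at 2.39, Gzmd at 0.91, Gzmc at 2.06 and Gzmf at -0.39, none of them called.

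These granzymes are close copies, so reads of one may have been counted for another and the split among them is uncertain. Their transcripts were 94.98% identical over aligned bases between Gzmd and Gzme, 89.1% between Gzmd and Gzmf and 81.2% between Gzmc and Gzmd. The stretches before their starts were alike as well, with 94.0% identity between Gzmd and Gzme and 87.4% between Gzmc and Gzmd. They are shown because these genes moved together. Each run covers 250 bases before to 50 after the gene's start, read 5′ to 3′ on the gene's own minus strand, from RefSeq on GRCm38.p6, all 4 genes being matched by symbol. Capitals mark AACCACA, a RUNX motif, and TGACGTCA, a CRE motif, each searched on both strands with no overlap between them.
Gzme, chr14:56120576-56120875: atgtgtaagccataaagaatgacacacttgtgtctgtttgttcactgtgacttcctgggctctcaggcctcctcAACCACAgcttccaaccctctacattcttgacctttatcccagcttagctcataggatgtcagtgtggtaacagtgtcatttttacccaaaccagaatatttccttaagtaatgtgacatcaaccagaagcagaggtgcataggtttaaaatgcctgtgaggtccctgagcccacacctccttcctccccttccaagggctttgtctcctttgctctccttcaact
Gzmd, chr14:56132544-56132843: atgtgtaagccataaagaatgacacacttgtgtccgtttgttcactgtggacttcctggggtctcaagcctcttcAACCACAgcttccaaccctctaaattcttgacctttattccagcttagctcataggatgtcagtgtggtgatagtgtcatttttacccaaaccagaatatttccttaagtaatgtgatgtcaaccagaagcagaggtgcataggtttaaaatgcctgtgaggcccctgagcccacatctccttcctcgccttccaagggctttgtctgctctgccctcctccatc
Gzmc, chr14:56234608-56234907: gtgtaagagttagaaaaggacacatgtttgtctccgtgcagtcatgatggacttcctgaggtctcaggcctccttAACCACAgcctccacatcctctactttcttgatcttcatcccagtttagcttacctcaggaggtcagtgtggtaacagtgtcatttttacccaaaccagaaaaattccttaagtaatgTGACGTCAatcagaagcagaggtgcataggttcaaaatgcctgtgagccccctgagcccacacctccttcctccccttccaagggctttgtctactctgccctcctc
Gzmf, chr14:56211358-56211657: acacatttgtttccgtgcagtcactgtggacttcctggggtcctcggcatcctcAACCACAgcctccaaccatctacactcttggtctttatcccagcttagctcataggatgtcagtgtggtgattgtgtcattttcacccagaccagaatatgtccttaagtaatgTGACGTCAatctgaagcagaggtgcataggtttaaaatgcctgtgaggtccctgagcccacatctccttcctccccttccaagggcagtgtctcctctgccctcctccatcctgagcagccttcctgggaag

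The RUNX letters were found 1 time in each of the 4 windows, and in 5.27% of all 32851 promoter windows of the same length. The CRE letters were found in the Gzmc and Gzmf windows, 1 time each, and in 1.79% of all windows. The Pdcd1 window, chr1:94052504-94052803 on the minus strand, held neither. The 4 granzyme windows are close copies of each other, so matches in them are not separate observations to set against those shares. A match of letters is a description and no binding was measured.

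Cytokine and chemokine genes rose in part, with 7 of 20 called higher and none lower (median 0.40). Ccl9 (3.68), Ccl1 (2.80), Csf1, the macrophage growth factor (1.99), Spp1, or osteopontin (1.77), Ccl3 (1.41), the growth factor Areg (1.23) and Ifng (0.80) rose. Csf1 stood at 32.8 against 8.19 CPM in the B16-Ova pool and 59.9 against 15.2 CPM in MC38-Ova, and kept its size between depth-paired cells (2.05). Several came from few cells. The richest 20 PD-1-high cells of B16-Ova held 99.3% of the Ccl1, 95.8% of the Ccl9, 79.4% of the Spp1 and 75.1% of the Areg UMIs, against 37.7% for Csf1. Without proliferation-rich cells 2 of 18 list members tested rose. Spp1 stood at 246 against 64.6 CPM in B16-Ova but 9.44 against 3.61 CPM in MC38-Ova, and its change was 0.12 between depth-paired cells (adjusted p = 0.989; edgeR) and -0.02 between PD-1 quartiles taken within RNA deciles. Ifng, the effector cytokine interferon-γ, stood at 337 against 157 CPM and 902 against 637 CPM, and its call also ended between depth-paired cells (0.30). Ccl3 was at 0.48 there, still called, and lost its call with DESeq2. Tnf (-0.04) and Il2 (0.29) had no call. Ccl5, an abundant chemokine transcript at 6084 against 6734 CPM in B16-Ova cells and 4408 against 4224 CPM in MC38-Ova cells, was at -0.04 over all cells and at 0.87 between depth-paired cells (adjusted p = 3.07e-17; edgeR).

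Among costimulatory receptors 2 of 12 rose, and 4 between depth-paired cells and 7 within RNA deciles. Tnfrsf9, or 4-1BB, stood at 656 against 197 CPM in the B16-Ova pool and 891 against 382 CPM in MC38-Ova (log2 change 1.48). Tnfrsf4, or OX40, stood at 260.2 against 75.1 CPM and 225 against 97.6 CPM (1.49). Both are receptors of the TNF family that activated T cells express. Icos (0.33), Cd28 (-0.12) and Cd27 (0.20) had no call, and Icos was called between depth-paired cells (0.82). On the PD-1 axis, 3 of 25 genes rose, among them Pdcd1, whose product the selecting tag reads. The others were Cd80, a ligand of CD28, CTLA-4 and PD-L1 (1.88), and Pdcd1lg2, which encodes PD-L2 (1.00). Cd274, which encodes PD-L1 (-0.33), and the phosphatase genes Ptpn11 (0.37) and Ptpn6 (0.09) had no call. Between depth-paired cells 8 of these 25 rose and none fell. Early genes of the T cell receptor showed 1 rise, Irf8 (1.43, and 0.71 between depth-paired cells, still called), and 2 falls, Cd69 (-1.22) and Myc (-0.68), among 20 tested. Between depth-paired cells 3 rose and 3 fell.

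Glycolysis genes were higher, 8 of 19 tested with none lower (median 0.55). They included the lactate transporter Slc16a3 (1.31), the glucose transporter Slc2a3 (0.88), Tpi1 (0.86), Gapdh (0.71) and Ldha (0.59). Slc16a3 stood at 84.6 against 27.6 CPM in the B16-Ova pool and 151 against 73.2 CPM in MC38-Ova. Respiratory chain genes had no call among 24 (median 0.22, range -0.12 for Ndufa4 to 0.46 for Ndufb8). Without proliferation-rich cells 5 glycolysis genes were called. Between depth-paired cells 9 were called, the list median was 0.31, and Ldha and Eno1 lost their calls at 0.15 and 0.21.

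Proliferation genes differed in sign between the pools, a difference that was not tested. All 30 were above 0 in B16-Ova, with a median of 1.07, and 19 of 30 were below 0 in MC38-Ova, with a median of -0.10. Only Cenpa, a centromere histone, was called over both (1.01). Mki67 stood at 123 against 70.0 CPM in the B16-Ova pool and 59.9 against 67.2 CPM in MC38-Ova. Depth-paired cells had a list median of -0.34 with 1 gene called higher and 8 lower, Mki67 among the latter (-0.44). The list median over all cells was 0.50, so its sign was not the same between depth-paired cells. Between PD-1 quartiles taken within RNA deciles the list median was -0.33. Shares of cells went the other way once each cell was thinned to 3000 RNA UMIs. Among thinned B16-Ova cells, 72.6% of the PD-1-high and 46.4% of the PD-1-low group held 2 or more UMIs of the list. Among thinned MC38-Ova cells these shares were 57.9% and 48.7%. Why these checks differ was not tested.

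**Figure D4:**
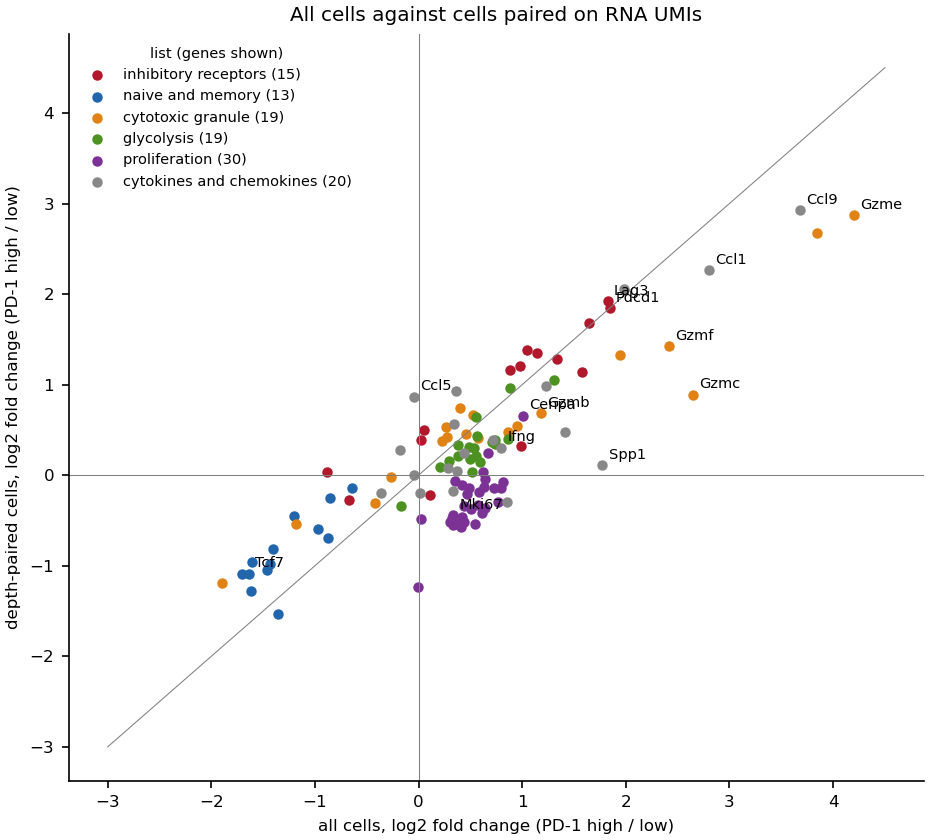
Log2 fold change (PD-1-high over PD-1-low) over all cells (x) against that over cells paired on RNA UMIs (y), 1 point per gene shown of 6 lists, with the line of equal values. Inhibitory receptors lie along the line (Pdcd1 1.84 and 1.85), the proliferation genes lie mostly below 0 on the y axis, and Spp1 and Gzmc lie well under the line.

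Trafficking receptors moved both ways. Of 21 tested, 3 rose and 5 fell, with a median of 0.01. Between depth-paired cells 7 rose and 4 fell (median 0.28), within RNA deciles 5 rose and 2 fell, and without cells over 30000 RNA UMIs 3 rose and 1 fell, so the balance of calls depended on the setting. Ccr8 stood at 54.6 against 9.36 CPM in the B16-Ova pool and 71.3 against 23.3 CPM in MC38-Ova (2.00), Cx3cr1 rose by 1.45, and Cxcr6, a receptor of tissue-resident T cells, rose by 0.99. S1pr1, Itgb7 (-1.03), Cxcr3 (-0.96) and Cd69 fell, as did S1pr5, which had no UMI in the PD-1-high B16-Ova cells and 5.85 CPM in the PD-1-low ones. Of 18 interferon-induced genes 2 fell, Oasl2 (-1.30) and Gbp2 (-1.02). All 18 were below 0 in the B16-Ova pool and 11 in MC38-Ova. Between depth-paired cells 2 of them rose and 2 fell, and Oasl2 lost its call at -0.49. Genes that tissue dissociation induces had 4 falls among 16, Socs3, Zfp36, Jun and Fos (-0.82 to -1.10).

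Genes that build and cap branched N-glycans, the ligands of L-Pha, had 1 fall and no rise among 21 tested. Cmah, which makes the sialic acid Neu5Gc, stood at 9.71 against 55.5 CPM in the B16-Ova pool and 19.5 against 45.8 CPM in MC38-Ova (-1.84 ± 0.26, SE; adjusted p = 1.77e-03). Mgat5, whose enzyme makes the branch that L-Pha binds, stood at 9.38 against 19.4 CPM in the B16-Ova pool and 17.3 against 22.5 CPM in MC38-Ova (-0.69 ± 0.24, SE; adjusted p = 0.146). Its share of RNA was thus lower in PD-1-high cells of both pools, without a call, while the lectin tag was higher. The tag was counted in UMIs per cell and Mgat5 as a share of RNA, so these values are in unlike units. Between cells paired on RNA UMIs the tag was still higher in PD-1-high cells, with ratios of 2.02 in B16-Ova and 1.75 in MC38-Ova. PD-1-high cells held more RNA, so a lower share of Mgat5 need not mean fewer Mgat5 UMIs per cell. Whether Mgat5 UMIs per cell differed was not tested.

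MHC class II genes were among the largest rises and went with cells that carried myeloid transcripts. H2-Ab1 stood at 17.9 against 4.21 CPM in the B16-Ova pool and 99.6 against 7.66 CPM in MC38-Ova (3.17), H2-Eb1 reached 3.92, H2-Aa 3.03 and Cd74, the invariant chain, 2.51. In MC38-Ova the richest 21 of 413 PD-1-high cells held 97.7% of H2-Aa and 93.2% of H2-Ab1 UMIs. Lyz2, C1qa, C1qb and C1qc, macrophage genes, rose as well. Without the cells that held any UMI of 8 defining myeloid genes, none of which is a class II gene, a gate chosen after seeing the data, H2-Eb1 was at 0.23, H2-Aa at -0.06, H2-Ab1 at 0.97 and Cd74 at 0.72. None of the 4 was then called. In that comparison 194 genes (1.93% of those tested) rose and 147 (1.46%) fell, and 318 of the 449 calls were kept with the same sign. The counts there were 9 of 15 higher for inhibitory receptors and 10 of 14 lower for naive and memory genes.

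Regulatory T cells of the same tumours, gated by Foxp3 with no Cd8a or Cd8b1 and split at the same PD1 limits, allowed a test of whether the change differed between cell types. They comprised 218 PD-1-high and 787 PD-1-low cells. The difference passed the threshold for 12 of 10671 genes (0.112%), and 871 had an unadjusted p under 0.05. Gzmb was at 1.17 in CD8-gated and -0.74 in Treg-gated cells, a difference of 1.90 ± 0.15 (SE; adjusted p = 1.77e-03). Lag3 was at 1.81 against -0.10, Ctla4 at 0.87 against -0.25, Tnfrsf4 at 1.48 against -0.16, Tnfrsf9 at 1.47 against -0.02 and Entpd1 at 1.32 against -0.31. Ccr7 went the other way, at -0.89 in CD8-gated and 0.83 in Treg-gated cells. Pdcd1 did not pass: it was at 1.83 and 1.59, a difference of 0.24 ± 0.21 (SE; adjusted p = 0.799). Havcr2 narrowly missed (difference 1.53, adjusted p = 0.0525; edgeR). Levels in PD-1-low cells differed by gene. Ctla4, Tnfrsf4 and Tnfrsf9 were far higher in Treg-gated cells, with 1822 CPM of Ctla4 in B16-Ova against 221 CPM in the CD8-gated cells. Lag3 stood at 289 CPM in Treg-gated B16-Ova and 222 CPM in MC38-Ova cells, the latter near the CD8-gated level given above. Prf1 was lower than in CD8-gated cells, at 51.5 and 27.9 CPM. Whether these levels bear on the differences was not tested. Between depth-paired cells 7 of the 12 kept their call, and Prf1 (0.12), Serpine2, Areg, Cxcl2 and Col3a1 lost it.

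**Figure D5:**
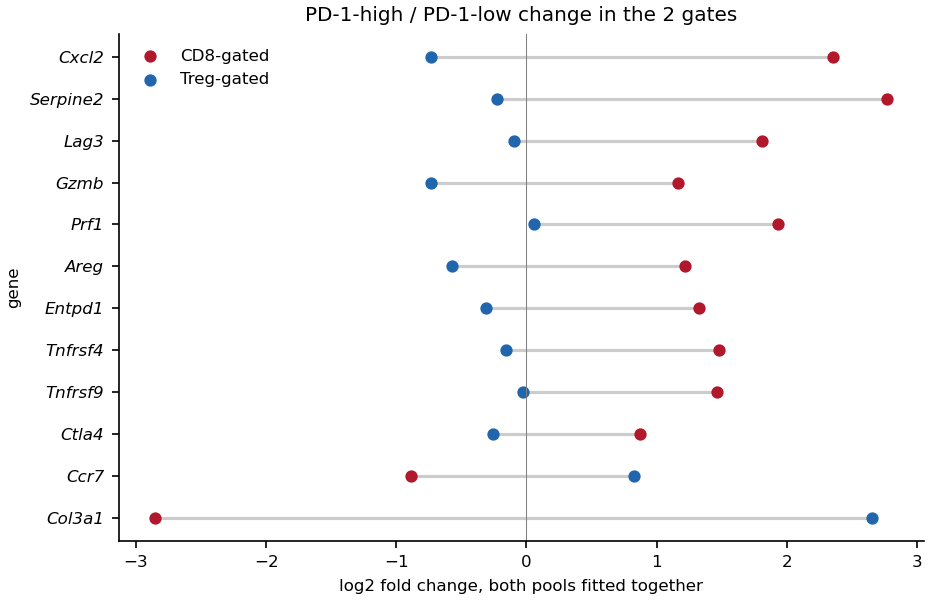
Log2 fold change (PD-1-high over PD-1-low, x) in CD8-gated and Treg-gated cells for the 12 genes (y) whose change differed between the gates at an adjusted p under 0.05. 10 genes lie higher in CD8-gated cells, Gzmb for example at 1.17 against -0.74, while Ccr7 and Col3a1 lie lower.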

How the data were processed

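Cell Ranger 3.1.0, Seurat 3.1.0, R 3.6.1 and the mm10 build are named in the submitters' processing notes. UMI counts, not normalized, were deposited by the authors as 1 matrix of 31053 genes, 2 hashtags and 3 antibody tags, and the annotation release is not given in the sources used here. Receptor sequences (TCR library) were not analysed here. Members and gene lists were chosen with earlier results of these data known.

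Cells had at least 500 genes, at most 10% mitochondrial UMIs, and a larger hashtag of 150 UMIs or more and at least 3 times the other. No doublet call was applied in the main comparison, and leaving out the 10% highest Scrublet scores was an alternative. UMIs were summed per pool and PD-1 group into 4 sums, filtered with filterByExpr, scaled by TMM and fitted in edgeR 4.0.16 (R 4.3.3) with pool as a block. With 1 residual degree of freedom per gene, most of the variance estimate comes from the other genes. Adjusted p-values are Benjamini-Hochberg over all genes tested, SE is the log2 fold change divided by the root of F, and pool values are differences of log2 CPM with a prior count of 2, with no test. The CD8 minus Treg interaction used 8 sums. Depth pairing took the nearest PD-1-high and PD-1-low cells within 10% of RNA UMIs, nearest pairs first, a form chosen after a simpler one left high cells deeper. The spread of that fit was wholly borrowed across genes, so its adjusted p-values are very small. The fit was tested on simulated data. Genes were named by rule: the 10 largest rises and falls past adjusted p 0.05 with a mean of 20 CPM or more and 1 sign in both pools, and members of the fixed lists. The counts and medians of the naive and memory list include 1 gene that is not reported here. Examples other than the largest and median changes of a list, and the marker genes named, were picked with values known. Coordinates are GENCODE vM21 on GRCm38, matched by gene ID. Python 3.11.15 was used for sums.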

Additional observations from a re-analysis of the deposited data

Results flagged for a closer look

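List medians had opposite signs in the pools for 4 lists, a difference that was not tested. The proliferation list had a median log2 change of 1.07 for B16-Ova cells and -0.10 for MC38-Ova cells. Median RNA depth was higher in PD-1-high cells of both pools, 2.08 times that of PD-1-low cells in B16-Ova and 1.57 times in MC38-Ova. The PD-1 axis and proximal T cell receptor signalling list had medians of -0.16 and 0.20, the early T cell receptor genes -0.22 and 0.10, and the homing and residency genes -0.21 and 0.035. These 3 lists lie near 0 in both pools.

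The PD-1 effect differed between CD8-gated and Treg-gated cells in the interaction test (edgeR, 8 sums) for 12 genes. The log2 differences, CD8 minus Treg, were 1.90 for Gzmb, 1.91 for Lag3, 1.63 for Tnfrsf4, 1.12 for Ctla4, 1.88 for Prf1, 1.49 for Tnfrsf9, 1.64 for Entpd1 and 1.79 for Areg. They were 2.9997 for Serpine2, 3.08 for Cxcl2, -1.71 for Ccr7 and -5.51 for Col3a1. Col3a1, a collagen gene of stroma, stood at 293 CPM in the PD-1-high Treg-gated sum of MC38-Ova and 43.96 CPM in the PD-1-low one, and at 1.98 and 21.5 CPM in the CD8-gated sums of that tumour.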

How the results depend on the processing

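Of 449 genes called in the comparison of PD-1-high with PD-1-low CD8 cells (256 higher, 193 lower), the number called was 716 (402, 314) between depth-paired cells, 687 (406 higher) between PD-1 quartiles within RNA deciles, and 88 (59, 29) with 60 or more against 8 or fewer PD1 UMIs, where few cells remain. It was 285 (94 lower) without cells over 30000 RNA UMIs, 118 (69, 49) without cells holding 5 or more proliferation UMIs, 694 (320 lower) with RLE size factors, 1003 (521, 482) with no low count filter and 175 (116, 59) with DESeq2. Among settings chosen after seeing the data it was 208 (145, 63) without cells with 3 or more myeloid UMIs, and the lower calls numbered 126 between depth-paired cells without Gzmc to Gzmf cells. The other settings with the same contrast stayed within 1.5 times of 449, among them 400 without cells of outlying tag counts, also chosen after seeing the data. DESeq2's 175 genes were all among the 449, and 320 of the 449 were called with the same sign between depth-paired cells, which is 44.7% of the calls there. The CD8 minus Treg count of 12 was 31 between depth-paired cells and 96 with no filter. The causes were not tested.

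A sign was counted as turned only where 1 of the 2 fits called the gene. Of 2072 values for 118 named genes from settings with a test, 1765 kept direction and side of the threshold, 252 lost the call, 40 gained it and 15 turned. In the 236 values from 1 pool alone, which have no test, 235 kept the sign and 1 turned. Without cells with 3 or more myeloid UMIs, a gate that itself counts H2-Aa, Cd74, Lyz2 and C1qa, H2-Eb1 was at -0.48, H2-Aa at -0.31, Cd74 at -0.31, Lyz2 at -1.03 and C1qa at -0.28. H2-Aa was at -0.061 without cells with a UMI of 8 defining myeloid genes. Gzmf was at -0.39 without proliferation-rich cells. Ccl5 was at 0.87 between depth-paired cells, 0.75 within RNA deciles, 0.81 paired on RNA and hashtag and 0.92 when depth-paired without Gzmc to Gzmf cells. Spp1 was at -0.021 within deciles and -0.96 in the last of these settings. Mki67 was at -0.44 between depth-paired cells and Il2 at -1.67 paired on RNA and hashtag. Col3a1 was at 0.29 in the B16-Ova pool alone and -3.22 in the MC38-Ova pool alone. The main fit is itself paired, since PD-1-high and PD-1-low sums of a pool are compared with the pool as a block. At 60 or more PD1 UMIs the sums rest on 25 cells per pool, which limits what that setting can call.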
